A study of Mus musculus with 4 samples.

Results

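The genes described here encode the collagen alpha chains, the polypeptides that wind around each other into the triple helix of every collagen. They were taken as all genes whose name on the array is Col, a number, the letter a and a second number. The rule found 41 genes, measured by 63 probes on 72 spots, of 47856 gene and probe features on the array. Col6a3, Col21a1 and any chain listed on the array under another kind of name were not analysed here.

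RNA came from adipocyte progenitor cells, the mesenchymal precursors of fat cells, of FVB mice. The mice were male and 4 weeks old, and the cells were taken from subcutaneous depots by fluorescence-activated sorting and lysed untreated, with no time in culture. The groups were wild-type, with 2 samples, and Adamts1 transgenic, also with 2. Each sample was labelled with Cy3 and hybridised to its own Agilent array, and the arrays are called wild-type 1 and 2 and transgenic 1 and 2 after the labels. The transgene's product is an extracellular protease of proteoglycans such as versican. The labels name no promoter for the transgene and no cell type in which it is active, and they do not say whether a sample is 1 animal, a pool or a separate sort. The p-values therefore measure the spread between these samples, which may be technical.

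Fibroblast-like cells such as adipocyte progenitors secrete most of the collagen around fat cells. Fibrillar collagens form the load-bearing fibrils, and FACIT collagens (fibril-associated collagens with interrupted triple helices) sit on their surface. Type IV collagen forms the sheet of the basement membrane that wraps each mature fat cell and vessel, and the multiplexins bind to it. Type VI collagen forms beaded filaments between fibrils and basement membranes, type VIII forms hexagonal networks, type VII forms anchoring fibrils, and transmembrane collagens stay in the plasma membrane. A chain reaches the matrix only after hydroxylation, folding with the right partner chains, trimming of its ends and crosslinking.

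Levels are given as normalized log2 signal, the log2 of the processed spot signal minus the 75th percentile of its array, so that 0 is the level of that percentile. A probe's level cannot be set against another probe's, because probes bind with different strength, and each difference of a chain below is of 1 probe between arrays unless it is said to be a mean of probes. On wild-type 1, 47.0% of spots were well above background, and at least 55.5% on each other array. Wild-type 1 was also the dimmest array, with a 75th percentile signal of 239 against 334 to 354 on the others, and wild-type arrays correlated at 0.984 over the features tested, against 0.994 for the transgenic arrays. The Adamts1 probe read 6.65 and 6.73 in wild-type and 6.77 and 6.82 in transgenic samples, a log2 difference of 0.11 ± 0.09 (SE, 2 arrays per group, adjusted p = 0.573 from limma). Both transgenic values were above both wild-type values, but the difference was small and not called, so Adamts1 RNA gives little check of the labels. All 11 adipocyte progenitor markers, among them Pdgfra, Ly6a and Cd34, were above background on all 4 arrays.

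4 collagen chains differed between transgenic and wild-type progenitors. Col18a1, whose chain carries endostatin at its end, was 2.06-fold higher and Col4a1, a chain of the main basement membrane collagen, 1.77-fold higher. Col12a1, a FACIT chain, was 2.66-fold lower and Col8a1, a chain of network-forming type VIII collagen, 3.58-fold lower. The 25 other chains tested were not called.

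A chain was tested where its probe was well above background on both arrays of at least 1 group, which 29 of the 41 chains were. Groups were compared with limma, with p-values adjusted by Benjamini-Hochberg over all 24505 features tested and a call at an adjusted p under 0.05. Of all features, 423 were called, or 1.73%, of which 237 were higher (0.967% of features) and 186 lower (0.759%). Of the calls 56.0% were higher. That share was 66.2% when the 75th percentile was taken over probes above background on all arrays, 49.7% with a median shift and 49.8% with normexp background correction. Among the chains 2 of 29 were called higher and 2 lower, or 13.8%. An unadjusted p under 0.05 was reached by 16 chains (55.2%), 11 of them higher and 5 lower, against 19.0% of all features. The median log2 difference of the chains tested was 0.23, against -0.02 over all features, and it was above 0 for 20 chains (47.8% of all features) and below 0 for 9. In 26 chains (89.7%) the 2 groups did not overlap, 17 with the transgenic arrays above and 9 with them below, where 53.2% of all features did not overlap. The members include chains that passed only because they were above background in transgenic samples, as 17.4% of all features did, so these shares are given as a description.

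**Figure D1:**
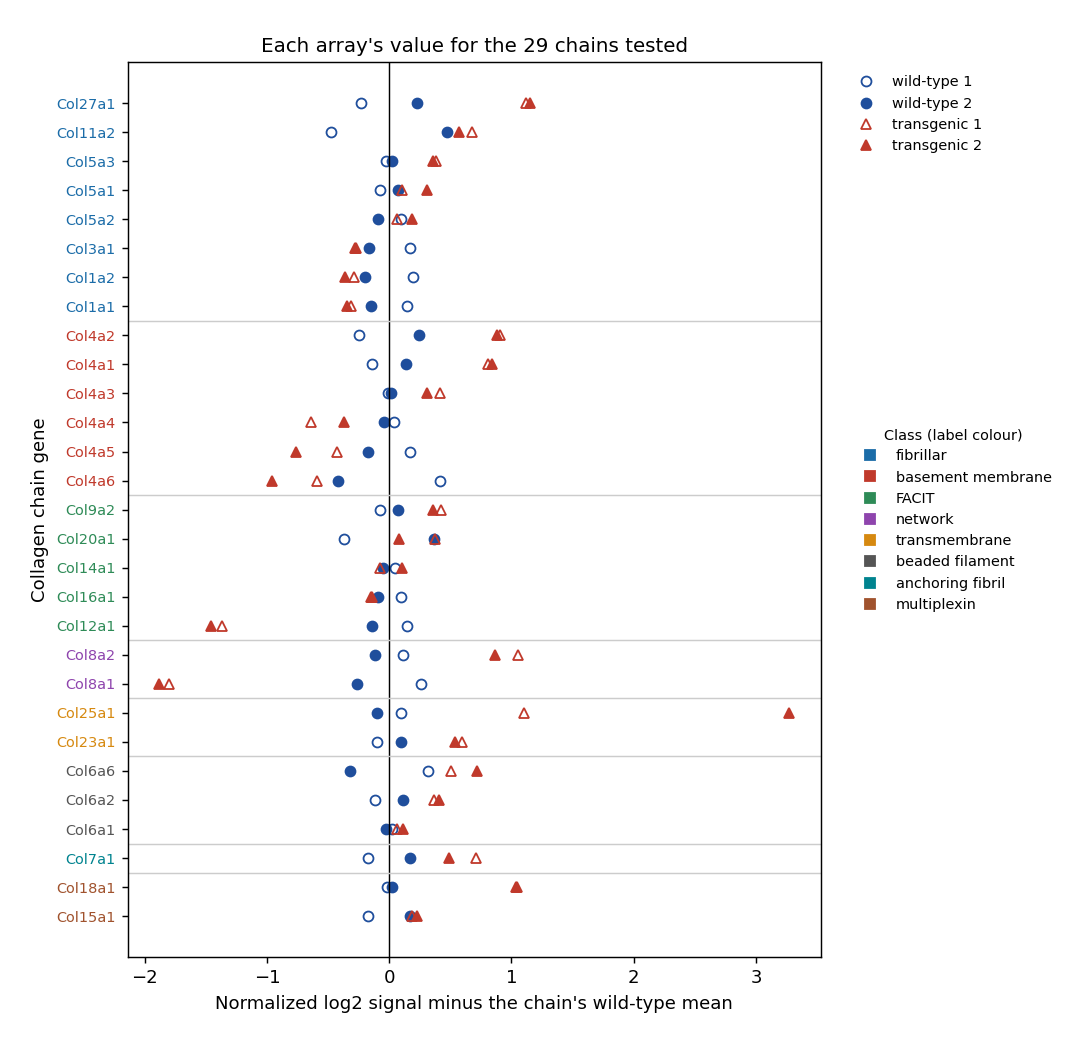
Normalized log2 signal of each of the 29 collagen chains tested, on each array, minus that chain's wild-type mean. Circles are wild-type and triangles transgenic arrays, open for replicate 1 and filled for replicate 2, and label colours give the class. The 2 transgenic arrays lie close together for Col18a1, Col12a1 and Col8a1 and far from both wild-type arrays, whereas the transgenic values of Col25a1 lie 2.17 apart.

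The spread differed between the groups, which sets how firmly a chain can be called. For Col4a2 the wild-type arrays differed by 0.49 and the transgenic arrays by 0.02. The SD of the difference between replicates over all features tested was 0.577 in wild-type and 0.345 in transgenic samples. With 2 arrays per group an exact permutation test of a single chain cannot give a p below 0.333. The number of chains called changed with every array left out. It was 7 without wild-type 1 and 13 without wild-type 2. It was 1 without transgenic 1, where Col12a1 alone was called, and 0 without transgenic 2 by limma, where 10 chains had an unadjusted p under 0.05. Calls over all features moved with the same arrays, to 1280, 3981, 90 and 114. The differences themselves moved less: over these 4 fits Col18a1 ranged from 1.02 to 1.06, Col4a1 from 0.68 to 0.96, Col12a1 from -1.55 to -1.27 and Col8a1 from -2.10 to -1.58.

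**Figure D2:**
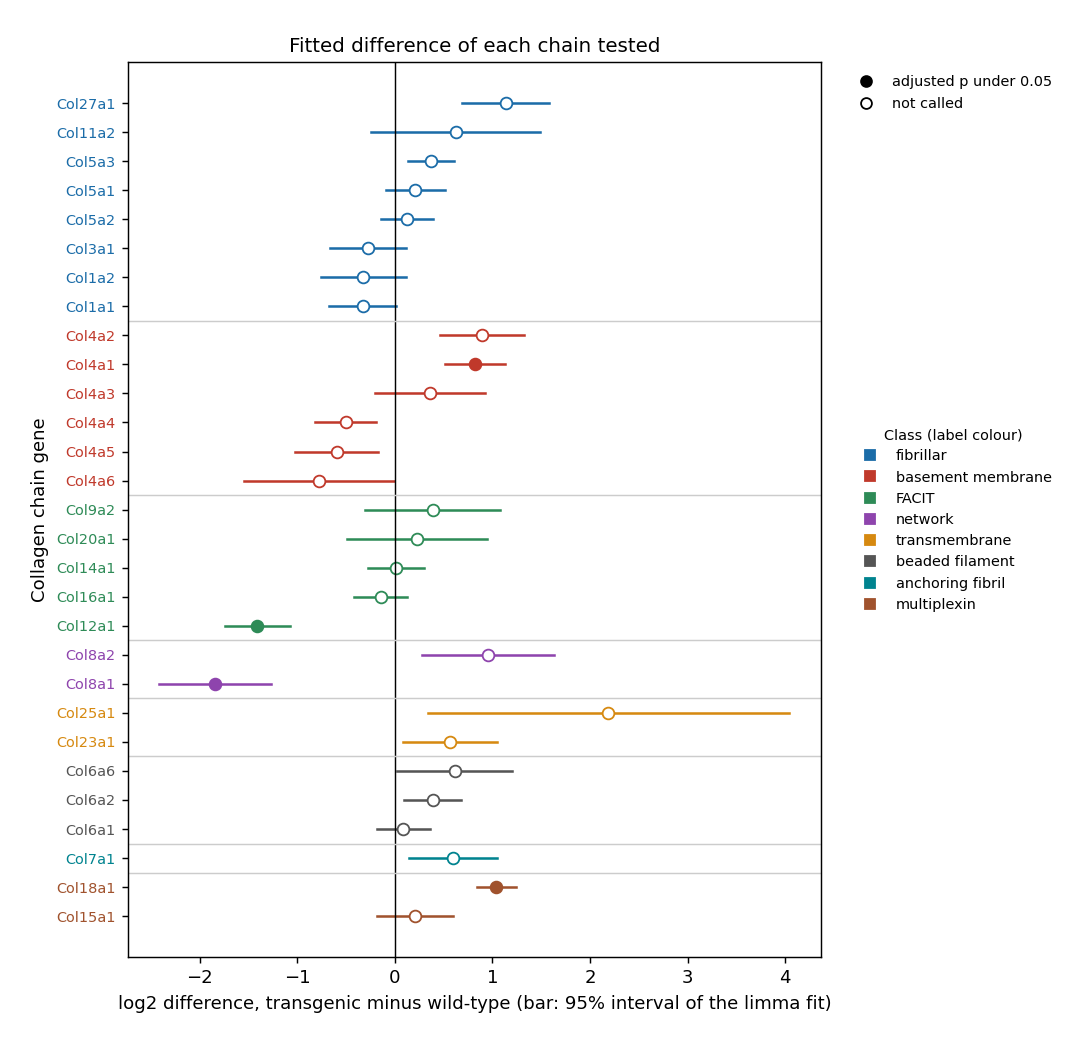
Log2 difference, transgenic minus wild-type, of each collagen chain tested, with the 95% interval of the limma fit as a bar and the chains grouped by class. Filled points mark the 4 called chains, Col4a1 and Col18a1 above 0 and Col12a1 and Col8a1 below it. Intervals are widest for dim probes such as Col25a1, whose interval runs from 0.34 to 4.04.

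All 6 chains of the basement membrane class were above background on all 4 arrays. They assemble into only a few trimers, and the genes lie as neighbours that are read in opposite directions. The most widespread trimer joins Col4a1 and Col4a2 chains. Col4a1 read 5.90 and 6.18 in wild-type and 6.85 and 6.88 in transgenic samples. Both transgenic arrays were above both wild-type arrays, and the difference was 0.82 ± 0.12 (SE, adjusted p = 0.0489 from limma, 2 arrays per group). This value lies just inside the threshold. The call was lost with a median shift (adjusted p = 0.0832), with the percentile over probes above background (0.0515), with the mean of a gene's probes (0.0541), with outlier spots kept (0.0501) and without an intensity trend (0.141). It was also lost without transgenic 1 (0.184) or transgenic 2 (0.180).

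Col4a2 read 5.30 and 5.79 in wild-type and 6.45 and 6.43 in transgenic samples. Its transgenic arrays were likewise above both wild-type arrays, and the difference was as large as that of its partner, 0.90 ± 0.17 (SE), but it was not called (adjusted p = 0.0786 from limma). Of the 16 settings that kept all arrays, 2 called it. These were no filter (adjusted p = 0.0379) and the replicate number fitted as a block (0.0334). The wider spread of its wild-type arrays goes with its larger SE.

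The starts of both genes lie within their promoter windows of each other, so the windows are shown together. In the RefSeq windows of assembly GRCm38.p6, from 250 bases before to 50 bases after a start, the starts of Col4a1 (chr8:11312777-11313076, minus strand) and Col4a2 (chr8:11312555-11312854, plus strand) lie 21 bases apart. Each sequence is written 5′ to 3′ on the strand of its own gene, and capitals mark the 78 bases that both windows hold, which are reverse complements of each other.
Col4a1: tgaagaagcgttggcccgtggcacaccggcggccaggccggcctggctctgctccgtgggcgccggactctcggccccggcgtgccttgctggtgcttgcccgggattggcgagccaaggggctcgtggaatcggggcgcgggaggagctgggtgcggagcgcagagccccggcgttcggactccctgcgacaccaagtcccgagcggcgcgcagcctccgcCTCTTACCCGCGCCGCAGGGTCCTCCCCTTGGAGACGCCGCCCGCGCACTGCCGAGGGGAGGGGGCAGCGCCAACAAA
Col4a2: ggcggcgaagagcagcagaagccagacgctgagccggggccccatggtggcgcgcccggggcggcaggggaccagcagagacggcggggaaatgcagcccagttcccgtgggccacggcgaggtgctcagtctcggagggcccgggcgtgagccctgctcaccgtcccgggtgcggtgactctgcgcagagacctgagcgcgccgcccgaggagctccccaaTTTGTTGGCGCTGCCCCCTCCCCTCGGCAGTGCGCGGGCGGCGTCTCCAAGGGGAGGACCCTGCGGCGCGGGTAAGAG
Both windows hold a CCAAT match, and GGGCGG, the core of a GC box, was found once in the window of Col4a1 and 3 times in that of Col4a2. Neither holds TATAAA. Motifs were searched on both strands, and the matches in these windows do not overlap.

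The other type IV chains are found in the basement membranes of kidney, lung, smooth muscle and other specialised sites. Col4a5 read 3.95 and 3.61 in wild-type and 3.35 and 3.01 in transgenic samples. Its difference was -0.59 ± 0.17 (SE, adjusted p = 0.159 from limma). Its neighbour Col4a6 read 0.57 and -0.27 in wild-type and -0.44 and -0.81 in transgenic samples, a difference of -0.77 ± 0.30 (adjusted p = 0.261). That of Col4a6 was -0.36 without wild-type 1 and -1.19 without wild-type 2 (adjusted p = 0.0385, called), its second probe gave -0.13 ± 0.19, and the mean of its probes -0.45. For the probe used for each chain the transgenic arrays lay below the wild-type arrays, and neither chain was called in the main fit. Of the 16 settings that kept all arrays, none called Col4a6. Only 1 called Col4a5, with the replicate number fitted as a block (adjusted p = 0.0318 from limma). These neighbours start 1343 bases apart on the X chromosome, on opposite strands, and their windows share no base.

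Col4a3 and Col4a4 are likewise known as neighbours read in opposite directions. Col4a3, whose chain holds the Goodpasture antigen, read -3.17 and -3.15 in wild-type and -2.74 and -2.85 in transgenic samples, a difference of 0.36 ± 0.22 (adjusted p = 0.433). With normexp background correction its sign turned (-0.02). Col4a4 read 1.86 and 1.78 in wild-type and 1.18 and 1.45 in transgenic samples, a difference of -0.50 ± 0.12 (adjusted p = 0.130). Its other probes gave -1.72 ± 0.50 and -0.02 ± 0.17, so its size depended on the probe. The class thus held 3 chains with a positive and 3 with a negative difference, and its median was -0.07. A difference between the pairs was not tested.

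The multiplexins Col15a1 and Col18a1 are basement membrane collagens that carry heparan or chondroitin sulfate chains. Col18a1 read 4.00 and 4.05 in wild-type and 5.06 and 5.07 in transgenic samples. The replicates differed by 0.04 in wild-type and by 0.01 in transgenic samples, and the difference was 1.04 ± 0.08 (SE, adjusted p = 0.0190 from limma), the smallest p of any chain. A separate probe for the same gene, at chr10:76515790-76515849 on mm9, gave 1.24 ± 0.10 beside that of the gene's probe at chr10:76514926-76514985. The call was lost without an intensity trend (adjusted p = 0.0881), without transgenic 1 (0.0678) and without transgenic 2 (0.0558). RefSeq gives Col18a1 a pair of starts, and the probes do not tell which of them was used. The window at chr10:77166481-77166780 holds a CCAAT match and 3 GC box matches, and the window at chr10:77113656-77113955 holds none of the motifs.

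Col15a1 depended on the probe. Its brightest probe, at chr4:47283786-47283845 on mm9, read -0.04 and 0.30 in wild-type and 0.32 and 0.35 in transgenic samples, a difference of 0.21 ± 0.15 (adjusted p = 0.511). The other probes lie at chr4:47325261-47325320 and chr4:47325273-47325332, farther along the gene in the direction of transcription, and overlap each other. The first of them gave a difference of 0.98 ± 0.14 and the second 1.01 ± 0.14. Fitted with every probe as a feature of its own, where 1.75% of probes were called, both were called higher (adjusted p = 0.0484 and 0.0473), and the brightest probe was not (0.502). With the mean of its probes, Col15a1 differed by 0.73 (adjusted p = 0.0834). Which exons or untranslated regions these probes lie in was not analysed here, so the disagreement cannot be tied to a transcript.

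**Figure D3:**
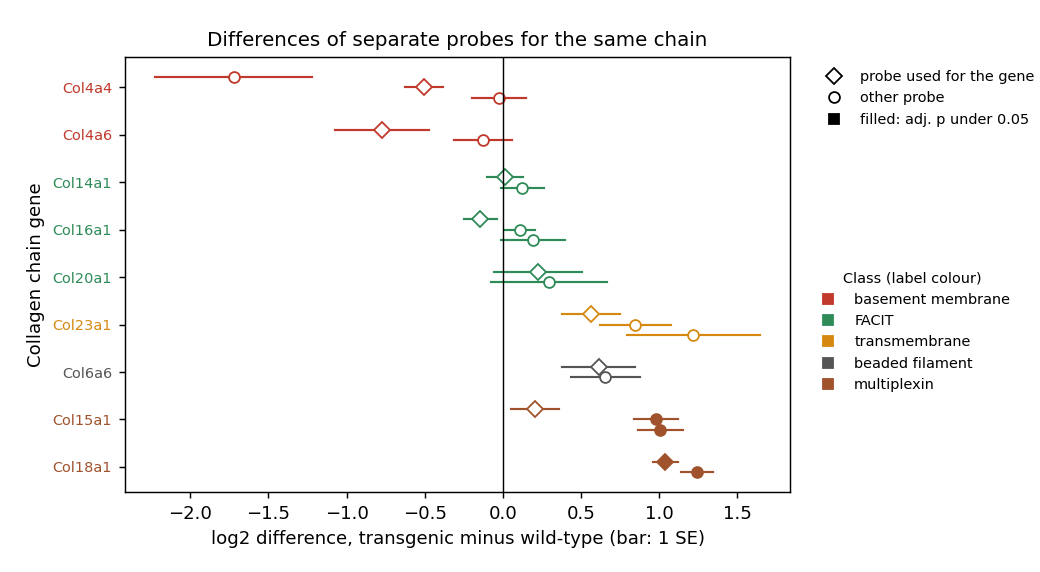
Log2 difference, transgenic minus wild-type, of each tested probe of the 9 collagen chains that had several tested probes, with 1 SE as a bar. Diamonds mark the probe that stands for the gene and filled symbols an adjusted p under 0.05 with every probe tested on its own. Both probes of Col18a1 were called, and of the 3 probes of Col15a1 only the overlapping pair was.

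Basement membrane chains are also made by vascular and mural cells and by maturing adipocytes, and markers of these cells moved between the groups. Beside the counts below, 1.73% of all features were called and 19.0% had an unadjusted p under 0.05 by limma. Summed signals of a list are in units of each array's 75th percentile, and since the brightest probe weighs most in a sum, the sum without it is given too. Of 10 smooth muscle and pericyte markers tested, 3 were called higher (Acta2, Notch3 and Rgs5) and 1 lower (Kcnj8). Rgs5 was below background in both wild-type samples and at least 4.91-fold higher, so it was tested through the transgenic arrays alone. Their summed signal was 17.2 and 17.3 in wild-type and 21.8 and 22.2 in transgenic samples, and without Mcam 6.91 and 8.12 against 12.3 and 11.8. Of 11 endothelial markers tested, 1 was called higher (Egfl7). At an unadjusted p under 0.05 by limma, 7 were higher, by 0.74 (Pecam1) to 2.65 (Flt1), and 1 was lower (Tek). The median difference of the list was 1.74, which is the value of Emcn. Cdh5, Flt1 and Cldn5, among those higher, were above background on only 1 wild-type array each, as was Tie1. These genes and Emcn were tested through the transgenic arrays alone, so the median is given only as a description. The bright probes of Kdr and Tek differed by -0.28 and -0.51 and were not called. The summed endothelial signal was 22.8 and 18.4 in wild-type and 19.7 and 18.6 in transgenic samples, and without Kdr 9.64 and 10.67 against 11.09 and 10.56. Erg was below background on every array and Emcn on both wild-type arrays. Of 9 mature adipocyte markers tested, 3 were called higher (Cd36, Fabp4 and Slc2a4), and the summed signal was 24.5 and 28.2 in wild-type and 112 and 117 in transgenic samples. Without Fabp4 it was 5.57 and 5.81 against 18.3 and 16.8, and Lep was below background on every array. Of 12 macrophage and myeloid markers tested, 7 were called higher, among them Cd74 by 3.21 on the log2 scale and Lyz2, which was below background in both wild-type samples, by at least 6.51-fold. Mrc1 and Ptprc, also called, were above background on 1 wild-type array each, so like Lyz2 they were tested through the transgenic arrays alone. The summed macrophage and myeloid signal was 58.0 and 57.5 in wild-type and 64.8 and 62.9 in transgenic samples, most of it from Itgam. Without Itgam it was 10.9 and 8.84 against 17.7 and 18.6. Of 5 Schwann cell markers tested, 1 was called higher (Ngfr) and 1 lower (Mbp). Of 5 lymphocyte markers tested, 1 was called higher (Cd3d, below background in both wild-type samples and at least 3.33-fold higher). Cd3d too was tested through the transgenic arrays alone. Cd3e, the brightest lymphocyte marker, was above background on all 4 arrays and went the other way. It differed by -1.01 and was not called (adjusted p = 0.162 from limma). At an unadjusted p under 0.05 by limma, 2 lymphocyte markers were higher and 1 was lower. The summed lymphocyte signal was lower on both transgenic arrays than on either wild-type array, and without Cd3e it was higher. The part of these cells in the collagen differences was not tested. In sorted samples measured in bulk, fewer cells of a type and less RNA per cell cannot be told apart.

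FACIT collagens bind to fibrils and set their spacing and links to other matrix. Col12a1, which coats type I collagen fibrils, read 2.14 and 1.86 in wild-type and 0.63 and 0.54 in transgenic samples. Both transgenic arrays were far below both wild-type arrays, and the level fell by 1.41 ± 0.13 (SE, adjusted p = 0.0246 from limma). It was called in 15 of the 16 settings that kept every array, the exception being no intensity trend (adjusted p = 0.0887), and in 3 of the 4 fits that left 1 array out, the exception being transgenic 2 (0.0510). The gene has 1 probe, at chr9:79446895-79446954 on mm9.

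Col14a1 and Col16a1, the other FACIT chains above background by a wide margin, had small differences. Col14a1, a chain of fibril surfaces in skin and tendon, read 7.61 and 7.50 in wild-type and 7.48 and 7.66 in transgenic samples, so the groups overlapped. Its difference was 0.01 with a 95% interval from -0.27 to 0.30, and its sign turned with a median shift (-0.02). Col16a1 read 7.32 and 7.13 in wild-type and 7.09 and 7.08 in transgenic samples, a difference of -0.14 with an interval from -0.41 to 0.13 (adjusted p = 0.511). It was the 1 chain of 9 with several tested probes whose probes differed in sign, from -0.14 to 0.19. With quantile normalization its own difference was 0.01. Col9a2, a chain of cartilage type IX collagen, read -4.18 and -4.02 in wild-type and -3.68 and -3.74 in transgenic samples, a difference of 0.39 ± 0.27 (adjusted p = 0.485), and was below background on wild-type 1. Col20a1 was not called either (0.23), and 4 FACIT chains were not tested. The class median was 0.01, with 1 of 5 chains tested called lower.

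The largest drop of any chain tested was that of Col8a1, a network-forming collagen. Col8a1 encodes a chain of type VIII collagen, best known from Descemet's membrane of the eye and from vessel walls. It read -0.27 and -0.80 in wild-type and -2.33 and -2.41 in transgenic samples. No transgenic value came within 1 log2 unit of a wild-type value, and the level fell by 1.84 ± 0.23 (SE, adjusted p = 0.0367 from limma). The processed signals behind these values were 198 and 192 in wild-type and 70.1 and 65.7 in transgenic samples, all well above background. The call was lost with normexp and quantile normalization (adjusted p = 0.0527), without an intensity trend (0.0980), without transgenic 1 (0.0798) and without transgenic 2 (0.0806). Its 1 probe lies at chr16:57624471-57624530 on mm9.

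The promoter window of Col8a1 is shown because this chain had the largest called difference. It lies at chr16:57754688-57754987 on the minus strand of GRCm38.p6, and capitals mark its 4 matches to GGGCGG or its reverse complement.
Col8a1: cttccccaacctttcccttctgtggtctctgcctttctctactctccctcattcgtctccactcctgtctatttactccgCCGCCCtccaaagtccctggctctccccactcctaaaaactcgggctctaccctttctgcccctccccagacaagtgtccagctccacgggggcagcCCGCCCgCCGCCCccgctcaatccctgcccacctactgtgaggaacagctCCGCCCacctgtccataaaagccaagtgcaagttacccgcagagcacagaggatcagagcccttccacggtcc
The 33 chain genes with a window in the RefSeq table have 36 windows. Of these windows 22 held GGGCGG on either strand, and 35.7% of all 32851 windows of this length held it. CCAAT was found in 13 of the 36 windows and in 37.4% of all windows, and TATAAA in 5 of the 36 and in 13.6% of all. These are matches of letters and say nothing about what binds there.

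Col8a2 encodes the partner chain of type VIII collagen. It read -3.98 and -4.20 in wild-type, where it was above background on wild-type 2 alone, and -3.04 and -3.23 in transgenic samples. Its difference was 0.96 ± 0.27 (SE, adjusted p = 0.158 from limma), opposite in sign to that of Col8a1, and a test of the contrast between the partners was not run. The value of this dim probe was 0.15 with normexp background correction and 0.34 with normexp and quantile normalization. Col10a1, the cartilage network collagen, was above background on no array.

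Fibrillar collagens, the bulk of connective tissue, gave no call by limma among the 8 chains tested. Of these, 2 had an unadjusted p under 0.05, against 19.0% of all features. The chains of types I and III form the main fibrils. Col1a1 read 8.48 and 8.18 in wild-type and 8.02 and 7.98 in transgenic samples, a difference of -0.33 ± 0.14 (SE, adjusted p = 0.277). Col1a2, its partner in the type I trimer, read 10.33 and 9.95 in wild-type and 9.85 and 9.78 in transgenic samples, a difference of -0.32 ± 0.17 (adjusted p = 0.375). Col3a1, whose trimer has a single kind of chain, read 9.55 and 9.21 in wild-type and 9.11 and 9.10 in transgenic samples, a difference of -0.27 ± 0.15 (adjusted p = 0.392). For each of these chains the transgenic arrays lay just below wild-type 2, and wild-type 1 stood above the rest.

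Those differences depended on the scaling. Before scaling, the processed signal of Col1a2 was 309039 and 329068 in wild-type and 326964 and 308402 in transgenic samples, so the groups overlapped. Col3a1 read 178739 and 197529 in wild-type and 195044 and 192242 in transgenic samples on the same scale, and none of these spots was saturated. With quantile normalization the difference of Col3a1 was 0.03, and with normexp and quantile normalization those of Col1a2 and Col3a1 were 0.17 and 0.0001, so no direction is given for them. Without wild-type 2, Col1a1, Col1a2 and Col3a1 were called lower.

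Type V collagen is buried in type I fibrils and limits their width. Col5a1 read 6.88 and 7.03 in wild-type and 7.06 and 7.26 in transgenic samples, a difference of 0.21 ± 0.12 (adjusted p = 0.398). Col5a2 read 4.94 and 4.75 in wild-type and 4.91 and 5.03 in transgenic samples, and its groups overlapped (0.12 ± 0.11). Col5a3 read 7.08 and 7.13 in wild-type and 7.49 and 7.46 in transgenic samples, a difference of 0.37 ± 0.09 (adjusted p = 0.138). Its replicates differed by 0.05 in wild-type and by 0.03 in transgenic samples and the groups did not overlap, but it was not called.

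Col27a1, a minor fibrillar chain best known from cartilage, came nearest to a call among the chains that missed it. It read -0.42 and 0.04 in wild-type and 0.92 and 0.96 in transgenic samples, and the difference was 1.13 ± 0.18 (SE, adjusted p = 0.0540 from limma). Of the 16 settings that kept all arrays, 4 called it. Col11a2 read -2.88 and -1.94 in wild-type and -1.74 and -1.84 in transgenic samples, a difference of 0.62 ± 0.34 that was 0.15 without wild-type 1 and 1.09 without wild-type 2 (adjusted p = 0.0388, called). The class median was 0.17, with 5 positive and 3 negative differences.

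Type VI collagen forms a filament network around fat cells, and 3 of its 4 chains here were tested. None was called by limma and 2 had an unadjusted p under 0.05, against 19.0% of all features. Col6a1 read 8.56 and 8.51 in wild-type and 8.60 and 8.64 in transgenic samples, a difference of 0.09 with a 95% interval from -0.18 to 0.36. Col6a2, its partner, read 6.82 and 7.05 in wild-type and 7.30 and 7.34 in transgenic samples, a difference of 0.39 ± 0.12 (SE, adjusted p = 0.171). Col6a6 read 0.40 and -0.24 in wild-type and 0.59 and 0.80 in transgenic samples, a difference of 0.61 ± 0.23 (adjusted p = 0.249), and its second probe gave 0.66 ± 0.22. The difference of the first was 0.93 without wild-type 1 (adjusted p = 0.0499, called) and 0.29 without wild-type 2. Col6a4 was above background on no array. All 3 differences were positive, with a median of 0.39.

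Col7a1, the anchoring fibril collagen of epithelial junctions, read -0.81 and -0.46 in wild-type and 0.07 and -0.15 in transgenic samples, a difference of 0.60 ± 0.18 (SE, adjusted p = 0.172 from limma). Of 6 epithelial markers on the array, 1 could be tested, Krt14, which differed by 0.25 (adjusted p = 0.728).

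Of the 4 transmembrane collagens, Col23a1 and Col25a1 were tested. Col23a1 read -2.45 and -2.26 in wild-type and -1.76 and -1.82 in transgenic samples, a difference of 0.57 ± 0.19 (adjusted p = 0.210). Its other probes gave 0.85 ± 0.23 and 1.22 ± 0.43. The probe with 1.22 was below background on both wild-type arrays and entered through the transgenic arrays alone, so it is no independent support. Col25a1, the chain of the Alzheimer plaque component CLAC, was entered by 1 of 4 probes, which was below the background threshold in both wild-type samples. Its processed signal was 4.91 and 5.97 in wild-type and 14.6 and 64.8 in transgenic samples, so the replicates of the transgenic group differed widely. The lowest signal above background was 19.7 on wild-type 1 and 10.9 on wild-type 2. Against it the transgenic mean was at least 1.68-fold higher, and the chain was not called (adjusted p = 0.207 from limma). This bound sets the mean of the transgenic arrays against the higher of that lowest signal and the probe's own on each wild-type array. It rests on transgenic 2, since transgenic 1, at 14.6, read below the 19.7 of wild-type 1. Another Col25a1 probe, at chr3:130299222-130299281 on mm9, was above background on wild-type 1 alone, with a signal of 50.4 there and 2.38 to 2.48 elsewhere. The probes thus did not give a common pattern, and with normexp background correction the fitted difference of the first was 0.19 in place of 2.19. Col13a1 and Col17a1 were above background on no array.

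The 12 chains not tested were Col2a1, Col11a1 and Col24a1 of the fibrillar class, Col9a1, Col9a3, Col19a1 and Col22a1 of the FACIT class, Col10a1, Col13a1, Col17a1, Col6a4 and Col28a1. Above background on no array were 9 of them. Col2a1 and Col11a1, which belong to cartilage, were above background on transgenic 1 alone. For Col11a1 the signal was 4.22 and 2.33 in wild-type, 100 on transgenic 1 and 8.96 on transgenic 2, so 1 array carries it. Col2a1 read 4.91 and 3.48 in wild-type and 16.3 and 2.86 in transgenic samples. Col9a1 was above background on wild-type 2 and transgenic 2. A probe below background does not show that its chain is not expressed.

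**Figure D4:**
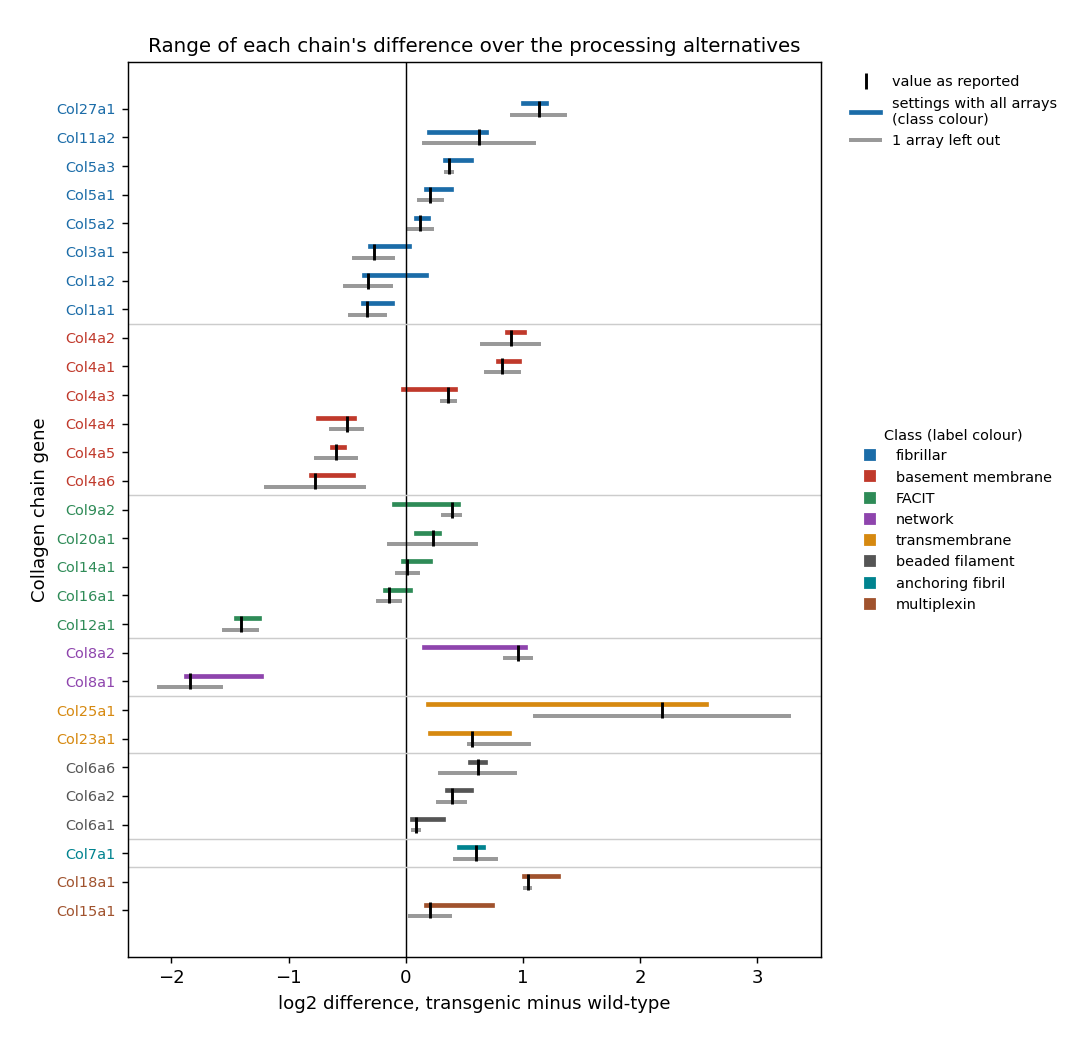
Range of each chain's log2 difference, transgenic minus wild-type, over the processing settings that kept every array (class colours) and over the 4 fits with 1 array left out (grey), with the reported value as a black tick. Col18a1, Col12a1 and Col8a1 stay far from 0 throughout, while Col1a2 runs from -0.36 to 0.17 and Col25a1 from 0.19 to 2.56 with every array kept.

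Of 21 tested genes for the enzymes and chaperones that modify and fold collagen, none was called by limma and 5 had an unadjusted p under 0.05. Their median difference was 0.06. Over all features 1.73% were called and 19.0% had an unadjusted p under 0.05, and these shares apply beside each list below too. Serpinh1, the collagen-specific chaperone HSP47, differed by -0.05 ± 0.12. Those with the smallest p were Colgalt2, a hydroxylysine galactosyltransferase, at -0.64 ± 0.16 (adjusted p = 0.127), and Plod2, a lysyl hydroxylase that sets crosslink chemistry, at 0.66 ± 0.19 (adjusted p = 0.161). Serpinh1 was picked after its value was seen.

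Processing and crosslinking genes were also without a call among 13 tested, with 1 higher and 5 lower at an unadjusted p under 0.05 and a median of -0.27. Pcolce2, an enhancer of procollagen C-proteinase, read 6.62 and 6.36 in wild-type and 5.76 and 5.57 in transgenic samples, a difference of -0.82 ± 0.13 (adjusted p = 0.0551 from limma). Loxl1, a lysyl oxidase that crosslinks elastin and collagen, read 8.13 and 8.22 in wild-type and 7.53 and 7.56 in transgenic samples, a difference of -0.63 ± 0.10 (adjusted p = 0.0590). In both genes all transgenic values lay below all wild-type values.

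Proteins that organise fibrils held 3 calls among 18 genes tested. Fmod, a small leucine-rich proteoglycan that binds type I fibrils, read -1.71 and -1.82 in wild-type and 1.12 and 0.74 in transgenic samples and was higher by 2.70 ± 0.18 (adjusted p = 0.0161). Bgn, a related proteoglycan, was higher by 1.05 ± 0.14 (adjusted p = 0.0409). Comp, a pentameric protein that binds fibrillar and FACIT collagens, read -0.22 and -0.34 in wild-type and -2.33 and -1.84 in transgenic samples and fell by 1.81 ± 0.21 (adjusted p = 0.0348). Dcn, the most closely studied small leucine-rich proteoglycan, differed by -0.23 ± 0.18 (adjusted p = 0.527 from limma), a gene named after its value was seen. The list's median was -0.25. Neither this median nor that of the processing and crosslinking genes was computed with other scalings. The small differences of the bright Col1a2 and Col3a1 probes depended on the scaling.

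Of 14 collagen receptors tested, 2 were called higher. Cd36, a scavenger receptor that also binds collagen and that is counted above as a mature adipocyte marker, was higher by 2.85 ± 0.12 (adjusted p = 0.0127). Adgrg1, an adhesion receptor for type III collagen, lay below background in both wild-type samples and was at least 3.03-fold higher in transgenic samples (adjusted p = 0.0279 from limma). It was tested through the transgenic arrays alone. Collagen-degrading enzymes and their inhibitors gave no call by limma among 12 genes tested, with 6 at an unadjusted p under 0.05. Mmp3, stromelysin, differed by 0.73 ± 0.13 (adjusted p = 0.0734), and Timp3, an inhibitor of metalloproteases including the Adamts family, by -0.37 ± 0.09 (adjusted p = 0.114). The medians were 0.02 for receptors and -0.01 for degradation.

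Some progenitor markers were lower, like Col12a1 and Col8a1. Of the 11 progenitor markers, 2 were called lower: Cd24a, from 1.62 and 1.505 in wild-type to 0.01 and -0.04 in transgenic samples, and Pi16, from 10.23 and 9.99 to 9.03 and 8.87. The summed signal of the 11 markers was 2265 and 1981 in wild-type and 1414 and 1392 in transgenic samples. Without Pi16 it was 1066 and 961 against 891 and 923. These sums were not computed with other scalings, on which the small differences of the bright Col1a2 and Col3a1 probes depended. Among the markers not called, Dpp4 differed by -0.71, Ly6a by -0.41 and Cd34 by -0.39, and Thy1 by 0.61, Icam1 by 0.51 and Pdgfrb by 0.40. Of all 11 markers, 5 were lower and 2 higher at an unadjusted p under 0.05 by limma, which 19.0% of all features reached in either direction. Pdgfra differed by 0.08 (adjusted p = 0.702). Their part in the lower Col12a1 and Col8a1 was not tested.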

How the data were processed

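The authors deposited, for each array, the processed spot intensity written by Agilent Feature Extraction 10.7.3.1 for array design 028005, background-subtracted and detrended per the file headers, with probe coordinates on mm9. The raw mean and background intensities that the authors deposited in the same files served 1 kind of alternative. The series table of log2 values that the authors deposited matched the log2 intensity, once shifted by the 75th percentile and centred on each probe's median, at correlations of 0.9998 to 1. Its column medians were 0.195, -0.021, -0.045 and 0.019. Its scale, centring and direction are known from this comparison alone, and it was used as an alternative.

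Control spots and outlier spots were left out, repeated spots were combined as the mean of their log2 values, and each array's 75th percentile over non-control spots was subtracted. The brightest probe on average stood for each gene. Group differences were tested two-sided with lmFit and trended eBayes of limma 3.58.1 (R 4.3.3), with 2 residual and 3.35 prior degrees of freedom. The fit was tested on simulated data. Precision is limited by having 2 arrays per group. The median SE over all features tested was 0.177. The slide and the scan were the same for all arrays (1 each), so neither was fitted as a block. Of the 63 member probes, 58 matched a RefSeq accession.

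Promoter windows are RefSeq's on GRCm38.p6, and exon annotation on mm9 was not used here. The members, the gene lists and the tests were chosen with earlier results of these data known. Values per array were given for the called chains, the pair of chains with the smallest p in each class, and the partner chains and neighbouring pairs. Values of Col2a1, Col11a1, Col11a2, Col14a1 and Col16a1 were added after they were seen. Of the pathway lists, the called genes or else those with the smallest p were named. The alternatives were other background corrections, scalings, filters, probe rules and variance models, the replicate block, and each array left out.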

Additional observations from a re-analysis of the deposited data

How the results depend on the processing

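The signs of 22 of the 29 chains tested held under all of the 19 alternatives that gave the chain a value. Reversed were Col9a2 (-0.10) and Col4a3 (-0.021) with normexp background correction; Col16a1 (0.032), Col1a2 (0.17) and Col3a1 (0.0001) with normexp and quantile normalization; Col16a1 (0.013) and Col3a1 (0.029) with quantile normalization; and Col14a1 (-0.022) with a median shift. With 1 array left out, Col14a1 ranged from -0.076 to 0.10 and Col20a1 from -0.14 to 0.60, and both changed sign. The count of chains called lower was 1 with normexp and quantile normalization. The count called higher was 1 with a median shift, with the percentile over probes above background on all arrays, with the mean of a gene's probes and with outlier spots kept. It was 3 with normexp background correction or array weights and also with every probe on its own, and 4 without a filter, where 702 features were called and the chains' median was 0.087. The median was 0.37 with quantile normalization and 0.31 with the mean of probes. Without an intensity trend 13 features and 0 chains in either direction were called by limma, with 16 chains at an unadjusted p under 0.05. Leaving out each array gave 90 to 3981 features called, 0 to 7 chains called higher, 0 to 6 called lower and medians of 0.14 to 0.38. Leave-out fits assume that the lone array of a group varies like those of the other group. The labels do not say whether the replicate numbers pair the samples, and 2 pairs are too few to settle it. Over all features tested, the replicate differences of the wild-type and the transgenic arrays correlated at 0.0032. With the replicate block 794 features, 4 chains higher and 3 lower were called. Signal over background limits the dim chains: 12 of 41 could not be tested.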
